A study of Mus musculus with 9 samples.

Results

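Smooth muscle contractile genes encode the filaments and filament-binding proteins with which smooth muscle cells shorten. The listed genes are Acta2, Actg2, Myh11, Cnn1, Tagln, Myl9, Des, Smtn, Lmod1 and Synpo2, 10 of the 22180 gene symbols named on the array, chosen by name as a gauge of the muscle around prostate glands in laser captures of epithelial lesions. Each was read from the probe set annotated with that symbol alone, the brightest where there was more than 1, and all 10 passed the filter on low signal that left 16635 genes to test. The captures came from male mice of mixed strain at 12 months of age and were taken from fixed, paraffin-embedded prostate. They formed 3 groups of 3 arrays. The first held poorly differentiated adenocarcinoma, labelled solid tumours, taken in animals of genotype PbCre;T-3Mb-Erg/+;PtenL/L. The second held high-grade prostatic intraepithelial neoplasia (HG-PIN, dysplastic epithelium within the gland) from those same 3 animals. The third held HG-PIN from 3 PbCre;PtenL/L mice, called control here. All 6 mice therefore carried PbCre, a Cre recombinase driven by a promoter active in prostate epithelium, and PtenL/L, and the control lesions are not normal tissue. The study, by its title, concerns the loss of 1 copy of the genes that lie between Tmprss2 and Erg. Replicate numbers of the T-3Mb-Erg groups mark the same mice.

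Glands of the mouse prostate are wrapped in a thin sheath of smooth muscle, which contracts to expel secretion. In such cells myosin thick filaments pull on actin thin filaments after the regulatory light chain is phosphorylated, and calponin, transgelin and related proteins tune that motion. Many of the genes are switched on together by serum response factor and its partner myocardin, which act at CArG boxes near the gene starts. Acta2, Tagln and Cnn1 are also made by myofibroblasts and pericytes, and Des by every kind of muscle.

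The promoters of Acta2 and Myl9 are shown because these were the windows among the contractile genes that held such boxes. RefSeq promoter windows of build GRCm38.p6, from 250 bases before to 50 after the gene start, matched 7 of the 10 genes by symbol. The CArG box was searched as CC, then 6 bases that are each A or T, then GG, a pattern that reads alike on both strands. It was found in 1 of the 7 windows, that of Myl9, and in 1.63% of all 32851 windows. With 1 base of the core allowed to be G or C it was found in 2 of the 7, against 9.98% of all windows. The boxes began 84 and 34 bases before the start of Acta2, both with 1 such base, and 161 (exact) and 99 bases before the start of Myl9. A match describes the letters and does not show binding. Capitals mark the boxes in the 5′ to 3′ sequences of Acta2 (chr19:34255324-34255623, minus strand) and Myl9 (chr2:156775214-156775513, plus strand).
Acta2: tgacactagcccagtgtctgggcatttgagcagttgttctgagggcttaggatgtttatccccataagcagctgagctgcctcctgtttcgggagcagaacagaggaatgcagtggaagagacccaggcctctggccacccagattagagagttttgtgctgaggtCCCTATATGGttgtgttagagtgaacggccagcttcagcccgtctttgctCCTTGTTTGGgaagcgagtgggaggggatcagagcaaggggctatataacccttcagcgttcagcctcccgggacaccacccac
Myl9: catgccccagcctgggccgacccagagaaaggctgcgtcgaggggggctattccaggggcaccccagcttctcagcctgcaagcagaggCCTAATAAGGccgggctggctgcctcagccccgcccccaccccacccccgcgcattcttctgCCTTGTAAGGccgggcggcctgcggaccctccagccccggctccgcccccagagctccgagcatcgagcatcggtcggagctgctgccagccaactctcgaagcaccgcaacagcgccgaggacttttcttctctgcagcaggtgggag

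The arrays themselves differed in signal range and in the level of a set of genes used to gauge background. The 95th percentile of log2 intensity over all probe sets was 6.65 on tumour replicate 3 and 6.61 on T-3Mb-Erg HG-PIN replicate 1, and lay between 6.15 and 6.49 on the other 7 arrays. Olfactory and vomeronasal receptors, taken as a gauge of background, were lowest on the same arrays, with 95th percentiles of 4.49 and 4.48 log2 units, against 4.73 to 5.28 on the others. All 10 contractile genes lay above that percentile of their own array on T-3Mb-Erg HG-PIN replicate 1, 7 did on tumour replicate 3, 6 on T-3Mb-Erg HG-PIN replicate 2, and 1 to 5 on the other 6 arrays. The mean over 9 arrays exceeded the receptor level of 4.80 for 5 of the 10. Luminal epithelial genes (9 tested, among them Krt8, Cdh1 and Epcam) stood, relative to each gene's mean over 9 arrays, at -1.68, -1.59 and -1.26 log2 units in tumours, at 1.34, 0.91 and 0.85 in T-3Mb-Erg HG-PIN, against 0.97, -0.43 and 0.89 in control HG-PIN. The tumour captures and control HG-PIN replicate 2 had the lowest luminal signal.

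The contractile genes were high mainly on 1 array, T-3Mb-Erg HG-PIN replicate 1, where 8 of the 10 reached their highest level of all 9 arrays. Tumour replicate 3 held the highest level of the other 2, Des and Smtn. Of all 16635 genes, 12.4% were highest on T-3Mb-Erg HG-PIN replicate 1 and 15.9% on tumour replicate 3. Summed over the 10 genes on the linear scale, intensity was 269, 233 and 717 in tumours, 1474, 400 and 305 in T-3Mb-Erg HG-PIN, against 261, 250 and 322 in control HG-PIN. In such captures more muscle cells and more RNA per muscle cell cannot be told apart.

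Acta2, the smooth muscle alpha-actin of the thin filament, had log2 intensities of 5.66, 5.49 and 6.48 in tumours, 8.33, 5.75 and 6.09 in T-3Mb-Erg HG-PIN, against 5.87, 4.93 and 5.73 in control HG-PIN. Replicate 1 of the T-3Mb-Erg HG-PIN group was 5.99-fold above the median of the other 8 arrays, and the remaining arrays of the 3 groups overlapped. Actg2, the gamma-actin of visceral smooth muscle, stood at 4.62, 4.32 and 7.67 in tumours, 8.78, 6.26 and 5.12 in T-3Mb-Erg HG-PIN, against 4.47, 5.14 and 6.35 in control HG-PIN. It had the widest spread of the 10, with an SD of 1.85 in tumours, 1.87 in T-3Mb-Erg HG-PIN, against 0.95 in control HG-PIN (n = 3 each), and 1 capture of each group stood well above its companions. The actin genes are close in coding sequence, and cross-hybridisation between their probe sets was not tested.

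Myh11, the smooth muscle myosin heavy chain of the thick filament, had 4.10, 4.08 and 4.59 in tumours, 7.43, 4.75 and 4.67 in T-3Mb-Erg HG-PIN, against 4.49, 4.19 and 4.40 in control HG-PIN. Here replicate 1 of the T-3Mb-Erg HG-PIN group lay 2.68 log2 units above every other array, and tumour replicate 3, high in Actg2 and Des, was not high in Myh11. Myl9, a regulatory myosin light chain, had 4.66, 4.99 and 5.50 in tumours, 6.86, 5.54 and 5.63 in T-3Mb-Erg HG-PIN, against 5.19, 5.17 and 4.995 in control HG-PIN. All 3 T-3Mb-Erg HG-PIN captures exceeded every other capture for Myl9, and likewise for Myh11.

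**Figure D1:**
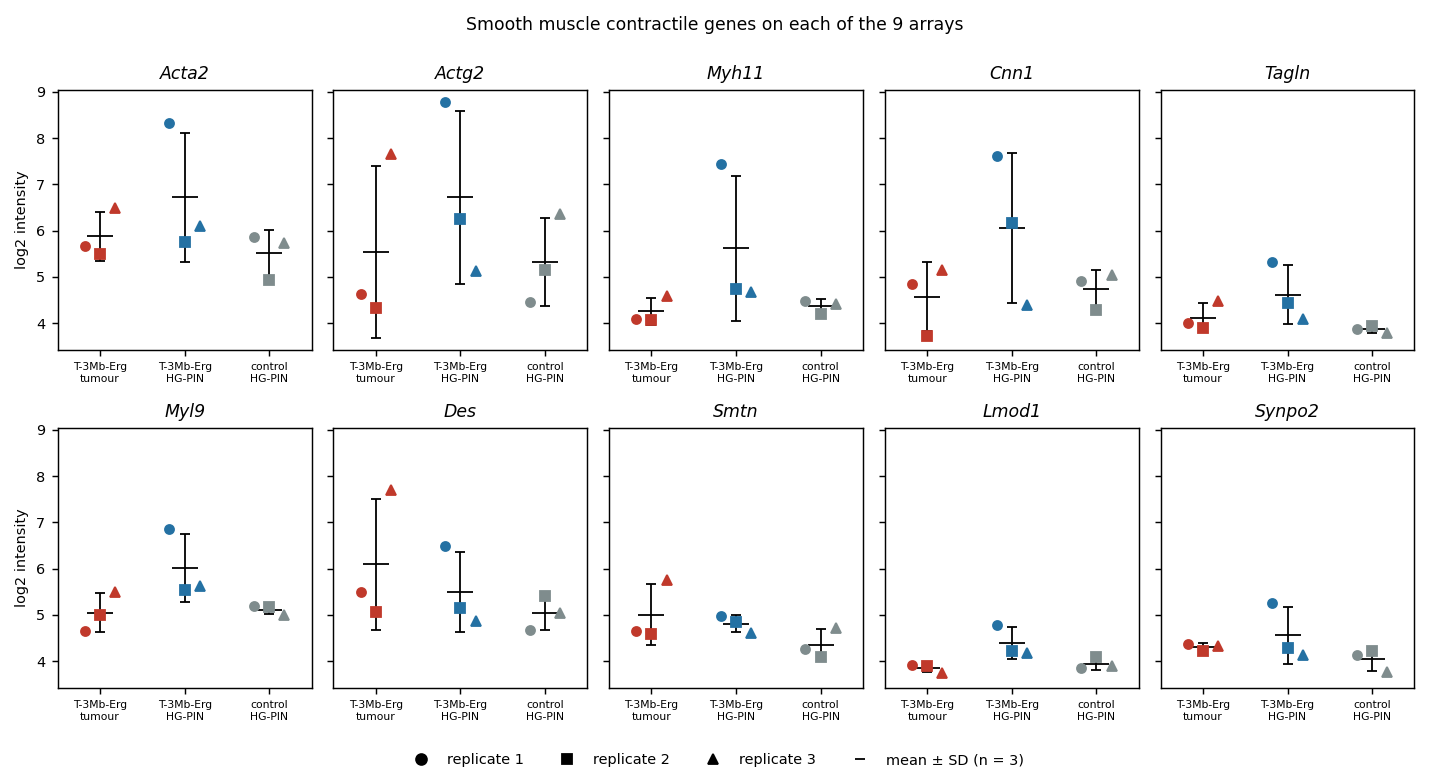
Log2 intensity (y axis) of the 10 contractile genes on each array, by group (x axis), with circles, squares and triangles for replicates 1, 2 and 3 and black bars for the mean ± SD of 3 arrays. The circle of T-3Mb-Erg HG-PIN (replicate 1) is the highest point for 8 genes, and the triangle of the tumours (replicate 3) is the highest for Des at 7.71 and Smtn at 5.76.

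Among the proteins that bind actin, Cnn1 (calponin, which restrains myosin on the thin filament) had 4.85, 3.73 and 5.14 in tumours, 7.62, 6.16 and 4.40 in T-3Mb-Erg HG-PIN, against 4.91, 4.27 and 5.04 in control HG-PIN. Replicate 2 of the T-3Mb-Erg HG-PIN group lay above all captures but replicate 1, as it did for Myh11 and Lmod1, while for Cnn1 replicate 3 was below 2 of the 3 control captures. Tagln (transgelin, an actin cross-linker) had 3.99, 3.90 and 4.47 in tumours, 5.33, 4.44 and 4.09 in T-3Mb-Erg HG-PIN, against 3.88, 3.94 and 3.79 in control HG-PIN. The T-3Mb-Erg HG-PIN captures lay above the controls without overlap, and only replicate 1 exceeded the receptor percentile of its own array.

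Lmod1 (leiomodin, which nucleates actin filaments in smooth muscle) had 3.92, 3.89 and 3.74 in tumours, 4.78, 4.22 and 4.18 in T-3Mb-Erg HG-PIN, against 3.85, 4.08 and 3.89 in control HG-PIN. It was higher in each T-3Mb-Erg HG-PIN capture than in any other, and only replicate 1 exceeded the receptor percentile of its own array. Synpo2 (synaptopodin 2, an actin-bundling protein of muscle) had 4.38, 4.22 and 4.32 in tumours, 5.26, 4.28 and 4.13 in T-3Mb-Erg HG-PIN, against 4.13, 4.22 and 3.76 in control HG-PIN. Apart from T-3Mb-Erg HG-PIN replicate 1, its captures lay within 3.76 to 4.38, each below the receptor percentile of its array. Smtn (smoothelin, an actin-binding protein of contractile smooth muscle) had 4.65, 4.60 and 5.76 in tumours, 4.98, 4.86 and 4.61 in T-3Mb-Erg HG-PIN, against 4.26, 4.09 and 4.72 in control HG-PIN. Smtn was the only member with 2 probe sets annotated with its symbol alone, and they disagreed. On the dimmer, the highest array was T-3Mb-Erg HG-PIN replicate 1 at 4.64, and tumour replicate 3 stood at 4.49.

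Des (desmin, the intermediate filament of muscle) had 5.50, 5.06 and 7.71 in tumours, 6.48, 5.15 and 4.87 in T-3Mb-Erg HG-PIN, against 4.67, 5.41 and 5.04 in control HG-PIN. Des was also listed on 1 probe set shared with other symbols, which was not read. Tumour replicate 3 lay 2.65 log2 units above the median of the 7 captures other than itself and T-3Mb-Erg HG-PIN replicate 1, close to the 2.54 of Actg2 on that array. The same array lay 1.16 above that median for Smtn, 0.75 for Acta2 and 0.53 for Tagln, but 0.18 for Myh11, 0.10 for Synpo2 and -0.18 for Lmod1. Actg2 was thus high on both arrays, and Myh11 on T-3Mb-Erg HG-PIN replicate 1 only.

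The first comparison set T-3Mb-Erg HG-PIN against control HG-PIN, which asks what differs with the T-3Mb-Erg allele at the same kind of lesion. All 10 contractile genes had positive changes, with a median log2 change of 0.82, against a median of -0.00 over all genes, of which 49.5% were positive. None of the 10 was called by limma, with adjusted p = 0.998 for each, and 0% of all genes were called. At an unadjusted p under 0.05 there were 2 of 10, Tagln and Myl9, against 1.83% of all genes in that direction, and 0 were lower, against 2.27%. The groups did not overlap for Myh11, Tagln, Myl9 and Lmod1, 4 of 10, against 4.86% of all genes higher without overlap and 5.25% lower.

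In that comparison Actg2 averaged 6.72 ± 1.87 in T-3Mb-Erg HG-PIN, against 5.32 ± 0.95 in control HG-PIN (SD, n = 3 each), a change of 1.40 with a 95% interval from -0.74 to 3.54. Acta2 averaged 6.72 ± 1.40 in T-3Mb-Erg HG-PIN, against 5.51 ± 0.51 in control HG-PIN, a change of 1.21 (SE 0.60). Myh11 averaged 5.62 ± 1.57 in T-3Mb-Erg HG-PIN, against 4.36 ± 0.15 in control HG-PIN, a change of 1.26 (SE 0.58). The SD in T-3Mb-Erg HG-PIN exceeded that in control HG-PIN for each of these genes. The change was 1.32 (SE 0.65) for Cnn1, 0.89 (SE 0.37) for Myl9 and 0.75 (SE 0.29) for Tagln. Synpo2, Des, Smtn and Lmod1 lay between 0.45 and 0.52.

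Much of the size of these differences came from a single capture. Without T-3Mb-Erg HG-PIN replicate 1 the 10 changes remained positive, with a median of 0.40 and a range from 0.01 for Des to 0.52 for Cnn1, and 0 of 10 had an unadjusted p under 0.05, against 1.72% of all genes higher in that fit. Without it Acta2 stood at 0.43 (SE 0.42), Actg2 at 0.45 (SE 0.88) and Myh11 at 0.36 (SE 0.24). Smtn, read from its brighter probe set, moved little, to 0.40 against 0.46 with all arrays. Its dimmer probe set had 4.64, 4.07 and 3.82 in T-3Mb-Erg HG-PIN, against 3.85, 3.89 and 4.58 in control HG-PIN, which overlapped. With the mean of its probe sets, the change of Smtn on all 9 arrays was 0.26. With the signal range of each array as a term in the fit on all 9 arrays, the median was 0.77.

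**Figure D2:**
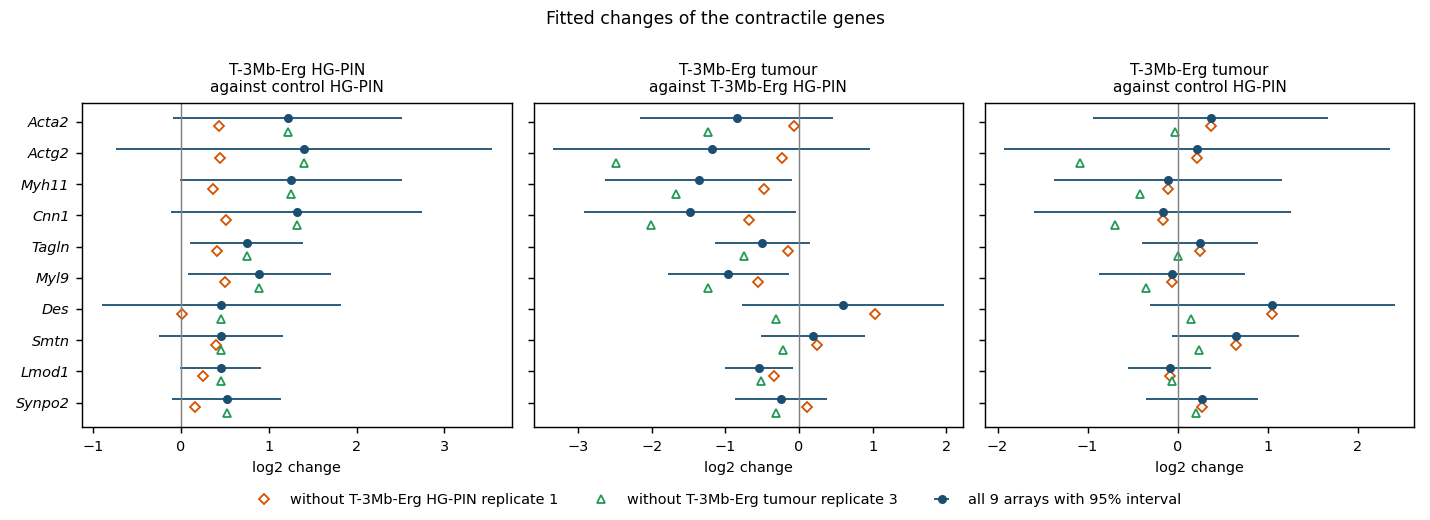
Fitted log2 change (x axis) of each contractile gene (rows) in the 3 comparisons; filled circles with bars give the value and 95% interval on all 9 arrays, diamonds the value without T-3Mb-Erg HG-PIN replicate 1 and triangles the value without tumour replicate 3. In the left panel every circle is above 0 and the diamonds lie nearer to 0, between 0.01 and 0.52.

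The second comparison set tumours against HG-PIN of the same 3 mice, which asks what distinguishes the tumour within an animal. The mouse was a random block with a consensus correlation of -0.01, so this fit was close to an unpaired one. Of the 10 genes, 8 had negative and 2 positive changes, with a median of -0.69 against -0.01 over all genes, of which 48.9% were positive. None was called (limma, adjusted p from 0.521 to 0.993), where 0.216% of all genes were called lower and 0.0661% higher, 0.283% in either direction. At an unadjusted p under 0.05, 4 were lower, Myl9, Lmod1, Myh11 and Cnn1, against 3.98% of all genes, and 0 were higher, against 3.67%. The groups did not overlap, with tumours lower, for Myh11, Myl9 and Lmod1, 3 of 10, against 6.43% of all genes. No member was higher without overlap, against 4.97% of all genes.

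Cnn1 averaged 4.57 ± 0.75 in tumours and 6.06 ± 1.61 in T-3Mb-Erg HG-PIN (SD, n = 3 each), a change of -1.49 with a 95% interval from -2.93 to -0.05. Myh11 averaged 4.25 ± 0.29 in tumours and 5.62 ± 1.57 in T-3Mb-Erg HG-PIN, a change of -1.37 (SE 0.58). Myl9 averaged 5.05 ± 0.43 in tumours and 6.01 ± 0.74 in T-3Mb-Erg HG-PIN, a change of -0.96 (SE 0.37). Actg2 stood at -1.19 (SE 0.99), Acta2 at -0.85 (SE 0.60), Lmod1 at -0.54, Tagln at -0.50 and Synpo2 at -0.25. The positive values were those of Des, at 6.09 ± 1.42 in tumours and 5.50 ± 0.86 in T-3Mb-Erg HG-PIN (change 0.59), and of Smtn (change 0.19).

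The 3 mice did not share 1 direction. In mouse 1 all 10 genes were lower in the tumour than in HG-PIN, by log2 differences from -0.33 for Smtn to -4.16 for Actg2. In mouse 2 all 10 were lower as well, from -0.06 for Synpo2 to -2.43 for Cnn1, with a median of -0.43 against -1.77 in mouse 1. In mouse 3, 7 were higher in the tumour, with Des at 2.84, Actg2 at 2.54 and Smtn at 1.16 the largest differences. Lmod1 at -0.44, Myl9 at -0.12 and Myh11 at -0.09 were lower in mouse 3. These are the 3 members that were lower in all 3 mice, as were 13.1% of all genes, and 0 members were higher in all 3, as were 11.5% of all genes.

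**Figure D3:**
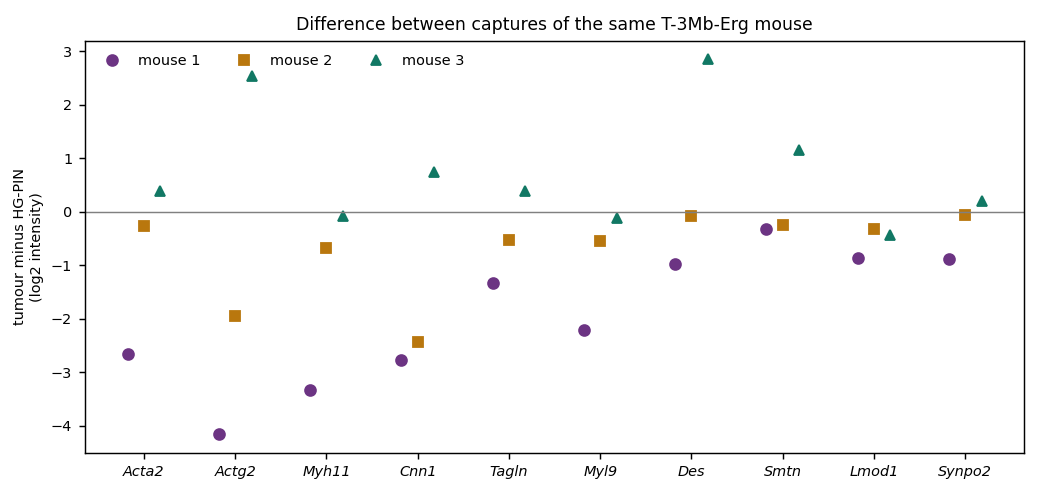
Log2 intensity of the tumour minus that of the HG-PIN capture of the same mouse (y axis) for each contractile gene (x axis), with circles, squares and triangles for mice 1, 2 and 3. Circles and squares are all below 0, down to -4.16 for Actg2 in mouse 1, and 7 of the 10 triangles are above 0, up to 2.84 for Des in mouse 3.

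Both high captures entered this comparison, 1 in each group. Without T-3Mb-Erg HG-PIN replicate 1 the median change was -0.19, with 7 negative and 3 positive values, and 0 of 10 had an unadjusted p under 0.05, against 3.16% of all genes lower in that fit. Without tumour replicate 3 all 10 changes were negative, with a median of -0.995, Actg2 at -2.49 and Des at -0.31, and 6 had an unadjusted p under 0.05, against 6.05% of all genes lower in that fit, and 0 were called. Without both, a setting chosen after seeing the data and fitted with no mouse block since 1 mouse kept both captures, the median was -0.33. Among the omissions of a single array 1 gave a call: Cnn1 stood at -2.40 (adjusted p = 0.0352, limma) without T-3Mb-Erg HG-PIN replicate 3.

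The third comparison, of tumours with control HG-PIN, shares its arrays with the other two. Of the 10 genes, 6 had positive and 4 negative changes, with a median of 0.23 against -0.03 over all genes, of which 46.3% were positive. None was called (limma, adjusted p from 0.592 to 0.977), where 0.108% of all genes were called higher and 0.0721% lower, 0.180% in either direction. At an unadjusted p under 0.05 there were 0 of 10, where 4.74% of all genes were higher and 4.59% lower. Des at 1.05 (SE 0.62) and Smtn at 0.65 (SE 0.32) had the largest values, and without tumour replicate 3 they stood at 0.15 and 0.24, with 4 positive and 6 negative members and a median of -0.05. The groups did not overlap for Synpo2 alone, which was higher in tumours by 0.27 (SE 0.28), against 6.20% of all genes higher and 7.51% lower without overlap. Ordered by group mean, T-3Mb-Erg HG-PIN was the highest of the 3 groups for 8 genes and tumours for 2, control HG-PIN was the lowest for 6 and tumours for 4, and no neighbours in that order differed by the test.

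Other genes of smooth muscle had smaller median changes. Of a list of 31 such genes, 29 were named on the array and 27 tested. Between T-3Mb-Erg HG-PIN and control HG-PIN 23 of the 27 were positive with a median of 0.22 (0.17 without T-3Mb-Erg HG-PIN replicate 1), and 0 were called. The smallest p values were those of Flna (filamin A, an actin cross-linker, 0.99, SE 0.44) and Cav1 (caveolin 1, of membrane caveolae, 0.78, SE 0.42), both at adjusted p = 0.998 in limma. Flna had 5.77, 5.07 and 4.70 in T-3Mb-Erg HG-PIN, against 4.39, 3.85 and 4.33 in control HG-PIN, without overlap. Cav1 had 5.96, 4.48 and 4.41 in T-3Mb-Erg HG-PIN, against 3.44, 4.59 and 4.48 in control HG-PIN. Replicate 1 stood apart in both of these groups, high in T-3Mb-Erg HG-PIN and low in control HG-PIN.

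Between tumours and T-3Mb-Erg HG-PIN 12 of the 27 were positive and 15 negative, with a median of -0.05 (0.02 without T-3Mb-Erg HG-PIN replicate 1, with 14 positive) and 0 called. The smallest p values were those of Pdlim7, a cytoskeletal adaptor with a change of 0.45 (SE 0.29), and Tpm1, a tropomyosin with a change of -0.60 (SE 0.43). Tpm1 had 5.52, 4.47 and 6.28 in tumours and 6.50, 6.02 and 5.55 in T-3Mb-Erg HG-PIN, which overlapped. On T-3Mb-Erg HG-PIN replicate 1, 8 of the 27 reached their highest level, against 12.4% of all genes. On tumour replicate 3, 7 of the 27 did, against 15.9% of all genes.

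Regulators of smooth muscle genes were followed beside the contractile genes. Of 7 tested (Srf, Myocd, Mrtfa, Mrtfb, Klf4, Elk1 and Gata6), 3 were positive and 4 negative between T-3Mb-Erg HG-PIN and control HG-PIN, with a median of -0.10, and 0 were highest on T-3Mb-Erg HG-PIN replicate 1, where 12.4% of all genes were. Srf, serum response factor, had 4.76, 5.02 and 4.99 in tumours, 4.31, 4.54 and 4.57 in T-3Mb-Erg HG-PIN, against 4.71, 4.70 and 4.70 in control HG-PIN. Its lowest level was on the array with the highest contractile signal. Its change between tumours and T-3Mb-Erg HG-PIN was 0.45 (SE 0.21) and was not called, and all 7 regulators were positive there with a median of 0.15, against 4 of 7 positive with a median of 0.06 when T-3Mb-Erg HG-PIN replicate 1 was left out. Gata6, a transcription factor of smooth muscle, had 3.83, 4.30 and 3.94 in tumours and 3.93, 3.71 and 3.55 in T-3Mb-Erg HG-PIN, which overlapped (change 0.29, SE 0.20). Between T-3Mb-Erg HG-PIN and control HG-PIN, the smallest p values were those of Elk1, an ETS-family partner of serum response factor, with a change of -0.39 (SE 0.27), and of Srf, with -0.23 (SE 0.21).

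Markers of other cell types were set beside the contractile genes on each array, as means of differences from each gene's 9-array mean. The contractile genes gave -0.37, -0.57 and 0.54 in tumours, 1.59, 0.14 and -0.22 in T-3Mb-Erg HG-PIN, against -0.43, -0.45 and -0.23 in control HG-PIN. Fibroblast markers (11 tested) gave 0.85, 0.03 and 2.20 in tumours, -0.01, 0.10 and -0.65 in T-3Mb-Erg HG-PIN, against -0.89, -0.87 and -0.77 in control HG-PIN. Pericyte markers (8 tested) gave 0.27, 0.15 and 0.77 in tumours, -0.27, -0.08 and -0.11 in T-3Mb-Erg HG-PIN, against -0.44, -0.06 and -0.23 in control HG-PIN. Tumour replicate 3, with its high Des and Actg2, was also the highest array for these lists, while T-3Mb-Erg HG-PIN replicate 1, with the highest contractile signal, was at or below the middle of both.

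**Figure D4:**
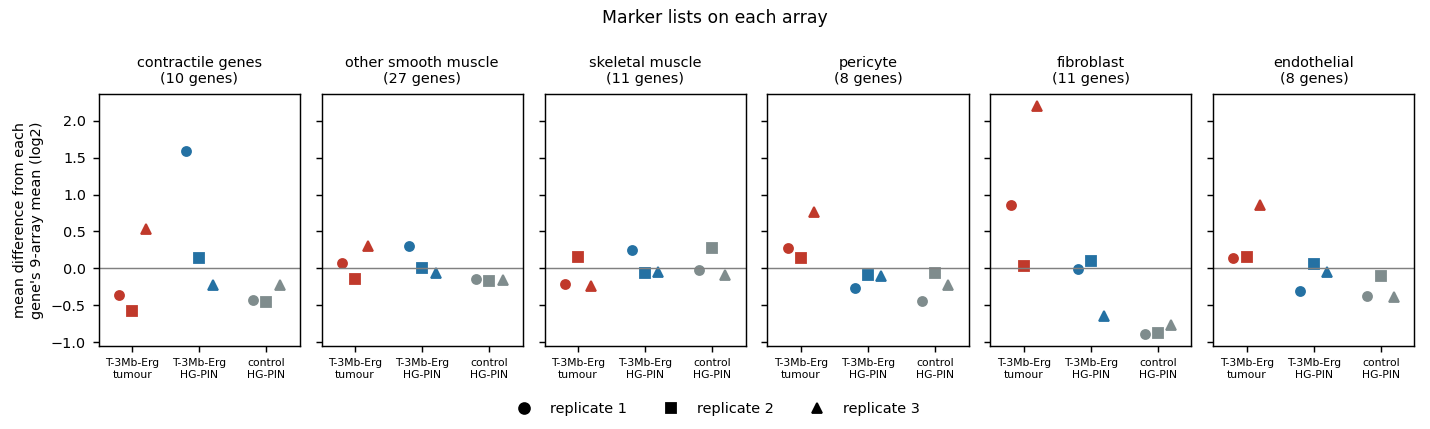
Mean log2 difference of each list's tested genes from their 9-array means (y axis), on each array, by group (x axis), with circles, squares and triangles for replicates 1, 2 and 3. The contractile list peaks at 1.59 on T-3Mb-Erg HG-PIN replicate 1, and the fibroblast, pericyte and endothelial lists peak on tumour replicate 3, at 2.20, 0.77 and 0.85.

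Summed intensity of the 12 fibroblast markers was 524 to 3598 in tumours, 286 to 697 in T-3Mb-Erg HG-PIN, against 228 to 263 in control HG-PIN. That of the 8 pericyte markers was 231 to 431 in tumours, 164 to 193 in T-3Mb-Erg HG-PIN, against 156 to 193 in control HG-PIN. Rgs5, a defining pericyte gene, had 5.98, 5.64 and 7.21 in tumours and 4.50, 4.38 and 3.89 in T-3Mb-Erg HG-PIN, without overlap (change 2.02, SE 0.37, limma adjusted p = 0.0531, not called). Ndufa4l2, also used as a pericyte marker, had 6.41, 4.79 and 6.70 in tumours and 4.51, 4.98 and 4.46 in T-3Mb-Erg HG-PIN, which overlapped (change 1.32, SE 0.46). Of the fibroblast markers, Pdgfra and Thy1 had the smallest p values between these groups, with changes of 1.95 (SE 0.48) and 1.99 (SE 0.54), not called. The part of fibroblasts or pericytes in the tumour values of the contractile genes was not tested. Endothelial markers (10 named, 8 tested) also peaked on tumour replicate 3, at 0.85, and stood at -0.30 on T-3Mb-Erg HG-PIN replicate 1.

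Skeletal muscle, which lies near the urethra, shares Des with smooth muscle. Its 13 markers had a summed intensity of 229 to 295 in tumours, 266 to 400 in T-3Mb-Erg HG-PIN, against 268 to 332 in control HG-PIN, with the highest sum on T-3Mb-Erg HG-PIN replicate 1. By mean difference from each gene's 9-array mean, the 11 tested instead peaked on control HG-PIN replicate 2, at 0.28. T-3Mb-Erg HG-PIN replicate 1 followed at 0.25. Of the 11 tested, 4 reached their highest level on T-3Mb-Erg HG-PIN replicate 1, where 12.4% of all genes did. Between T-3Mb-Erg HG-PIN and control HG-PIN 5 of the 11 were positive and 6 negative, and without that array 3 were positive and 8 negative, with 0 called. Mb, myoglobin, had 3.79, 4.29 and 4.01 in T-3Mb-Erg HG-PIN, against 4.38, 4.89 and 4.40 in control HG-PIN (change -0.53, SE 0.24). Its lowest level of all 9 arrays was on T-3Mb-Erg HG-PIN replicate 1, where Acta1 had its highest. Acta1, skeletal muscle actin, had 3.64, 4.16 and 3.91 in tumours, 5.87, 4.67 and 4.63 in T-3Mb-Erg HG-PIN, against 4.63, 4.59 and 4.04 in control HG-PIN, and was not called between tumours and T-3Mb-Erg HG-PIN (-1.15, SE 0.33, limma adjusted p = 0.291). Its change between T-3Mb-Erg HG-PIN and control HG-PIN was 0.63 (SE 0.33). Tnnc2, a troponin of fast skeletal muscle, had 5.36, 4.96 and 5.19 in tumours and 5.72, 5.41 and 5.60 in T-3Mb-Erg HG-PIN, without overlap (change -0.40, SE 0.27, not called). The part of skeletal muscle in the contractile signal of that array was not tested. Macrophage markers (9 tested) stood at 0.31 on T-3Mb-Erg HG-PIN replicate 1 and 0.52 on tumour replicate 3, against -0.31 to 0.15 on the others. Their members differed in direction. Between tumours and T-3Mb-Erg HG-PIN 5 were positive and 4 negative, and Cd14 was called lower (-1.73, limma adjusted p = 0.0409). Basal epithelial markers (6 tested) stood at -0.72 to -0.31 in tumours, 0.47 to 0.72 in T-3Mb-Erg HG-PIN, against -0.35 to 0.09 in control HG-PIN.

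Genes whose pattern over the 9 arrays was most like the mean of the 10 members were ranked by root-mean-square difference of centred log2 levels, over 16625 genes. The 5 nearest were Ebag9 (0.26), Pip4k2b (0.27), Hpgd (0.27), Mpp6 (0.28) and Psme3 (0.28), where the median gene stood at 0.74. The members themselves lay between 0.23 for Tagln and 0.88 for Actg2, and 9 of the 10 were farther from that mean than Ebag9 was. Ebag9 was the nearest in a search over 16625 genes, so that count says little about the members. Hpgd, which degrades prostaglandins, had 4.57, 4.68 and 5.43 in tumours, 7.01, 4.94 and 4.49 in T-3Mb-Erg HG-PIN, against 4.72, 5.03 and 5.17 in control HG-PIN. Its high level on T-3Mb-Erg HG-PIN replicate 1 follows from the ranking, since the mean of the members was highest there. None of the 50 nearest genes came from the list of other smooth muscle genes. That list made up only 27 of the 16625 genes compared, so the count of 0 says little about it.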

How the data were processed

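Laser captures of fixed mouse prostate were profiled on 9 Affymetrix Mouse Gene 2.0 ST arrays, 1 array per capture, after NuGEN amplification, per the labels' protocols. The authors deposited linear intensity values of 41345 probe sets. How these were background-corrected, summarised and normalized is not given in the sources used here. The array medians lay between 13.6 and 15.4. Arrays have no read depth, and their number, 3 per group, limits the precision.

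Names came from the annotation of the platform, updated by Entrez identifier with a RefSeq gene table of GRCm38.p6. Exactly 1 symbol was listed for 23521 probe sets, several for 1814 and none for 16010. The brightest probe set was kept for each of 22180 symbols, and log2 values were taken without an offset (floor 1, reached by 0 values). Genes in the lowest 25% by mean log2 (below 3.25) were removed, which left 16635. Python 3.11.15 was used for the tables.

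The model was limma 3.58.1 (R 4.3.3) on all 9 arrays, with the mouse as a random block (duplicateCorrelation, consensus correlation -0.01), empirical Bayes variances with a mean trend, and Benjamini-Hochberg adjustment over all 16635 genes. Tumour and HG-PIN of the T-3Mb-Erg mice are paired by the mouse identifiers in the labels. Deviations of the captures of 1 mouse from their group means correlated at 0.17, 0.10 and -0.30 in the 3 mice. A gene is called at an adjusted p under 0.05. No set test was run.

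The members and the other gene lists were chosen with earlier results of these data known. Named genes are the 10 members and the 5 genes with the smallest root-mean-square difference from the mean of the centred members. Of the other muscle, regulator, pericyte and fibroblast lists, the 2 with the smallest p are named in the comparisons described. Of the macrophage and basal epithelial lists, the member called between tumours and T-3Mb-Erg HG-PIN is named. Luminal epithelial genes are named as examples, with only the count of their calls, and no endothelial gene is named. Alternatives were other filters, an offset of 16, quantile and median scaling, the mean of a symbol's probe sets, other variance models, array weights, other blocks, the 6 arrays of a comparison, the signal range of each array as a term and each array left out. Leaving out T-3Mb-Erg HG-PIN replicate 1 and tumour replicate 3 together was chosen after seeing the data.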

Additional observations from a re-analysis of the deposited data

How the results depend on the processing

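Across 22 alternatives for T-3Mb-Erg HG-PIN against control HG-PIN and 22 for tumours against control HG-PIN, 0 contractile genes were called in each. The same held in 22 of 23 alternatives for tumours against T-3Mb-Erg HG-PIN, where leaving out single arrays gave between 0 and 1 called gene, Cnn1 without T-3Mb-Erg HG-PIN replicate 3. The median change of the genes lay between 0.37 and 1.11 in the first comparison. Leaving out single arrays gave medians from 0.40 to 1.11 there, from -1.02 to -0.19 for tumours against T-3Mb-Erg HG-PIN and from -0.05 to 0.36 for tumours against control HG-PIN. Among the alternatives that kept every array, an offset of 16 gave medians of 0.56, -0.51 and 0.14, and array weights 0.66, -0.49 and 0.05. Under a fixed replicate block for the mouse, tumours against T-3Mb-Erg HG-PIN gave 0 called members and a median of -0.69, and changed no call. The sign of single genes differed from the reported one in 1 of 220, 6 of 230 and 10 of 220 values of the 3 comparisons, none of them called. Over all genes, calls ranged from 0 to 9, 0 to 405 (47 as reported) and 0 to 938 (30 as reported), the highest in each with array weights. The low level of 5 of the 10 genes against the receptor gauge and the 3 arrays of each group limit what differences could be detected.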
